A study of Mus musculus with 16 samples.

Results

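The comparison of 60 h with 36 h in adult mouse neural stem cell cultures that carry CreER covered 8 of the 16 Affymetrix arrays of the study, the 8 whose label names CreER. In the labels these cells are Tlx(f/Z;CreER), and the 8 remaining arrays are of Tlx(f/Z) cells, here called cells without Cre. Tlx (gene symbol Nr2e1) is an orphan nuclear receptor that keeps adult neural stem cells dividing. CreER is a Cre recombinase fused to an oestrogen receptor domain, which lets Cre reach floxed DNA once 4-hydroxytamoxifen binds it. Cultures were given vehicle or 4-hydroxytamoxifen (4OH-TM in the labels), and total RNA was taken 36 h or 60 h later. This gave 4 CreER groups of 2 arrays: vehicle at 36 h, vehicle at 60 h, 4OH-TM at 36 h and 4OH-TM at 60 h. The same 4 groups without Cre served for comparison. All groups share the f/Z Tlx genotype, and the promoter that drives CreER, the age of the mice and the number of animals behind a replicate are not given in the sources used here. The p-values therefore measure the spread between the 2 arrays of a group, which may be technical.

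Adult neural stem cells in culture divide under growth factors, and they can also rest or turn into astrocytes, neurons or oligodendrocytes. Dividing cells carry high levels of the genes that copy DNA in S phase and of those that build the spindle in mitosis. The integrated stress response is a separate program, in which the transcription factor ATF4 raises genes that make, import and load amino acids. A further program, driven by hypoxia-inducible factors, raises glycolysis and oxygen-sensing genes. Changes with time that were called under both vehicle and 4OH-TM are given apart from those called under 1 treatment.

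Esr1, the gene of the oestrogen receptor from which the receptor part of CreER derives, gave signals of 326 to 487 on the 8 CreER arrays and of 12.9 to 29.7 on the 8 without Cre, as the labels state. No probe set of the annotation names Nr2e1, so loss of Tlx was not analysed here. Array pairs of the same CreER group correlated at 0.9881 to 0.9902 over all probe sets, and CreER arrays of the same treatment at 36 h and 60 h at 0.9853 to 0.9874. Neural stem cell markers were well expressed: 19 of the 23 on the array passed the filter on low signal, led by Vim, and their summed signal was 33780 to 36370 at 36 h and 34520 to 36610 at 60 h. Summed microglia markers (1 of 15 past the filter) were at 285.8 to 337.8 and 292.7 to 339.8, and no ependymal marker passed. Endothelial and mural markers (2 of 15 past the filter) were at 523.2 to 677.9 and 676.6 to 805.5, and fibroblast markers (1 of 14) at 2675 to 3213 and 2289 to 3197. In bulk RNA of this kind, fewer cells of a type and less RNA per cell cannot be told apart.

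Between 36 h and 60 h most mitosis genes fell in the CreER cultures under each treatment. Most DNA replication and integrated stress response genes fell in the mean of both treatments, with more of them called with 4OH-TM than under vehicle. Genes of hypoxia and glycolysis were among those that rose. Values are MAS5 signals after quantile normalization, and changes are differences of log2 signal, 60 h minus 36 h. A gene was called at a Benjamini-Hochberg adjusted p under 0.05 in limma, over the 7618 genes whose signal passed a filter. Over both treatments 1738 genes (22.8%) were called, 856 higher (11.2%) and 882 lower (11.6%). Under vehicle 786 genes (10.3%) were called, 294 higher (3.86%) and 492 lower (6.46%). Under 4OH-TM 1393 genes (18.3%) were called, 730 higher (9.58%) and 663 lower (8.7%). The vehicle count was 397 and 351 without the first and second vehicle arrays at 36 h and 489 and 413 without those at 60 h, and the 4OH-TM count was 699 without the second 4OH-TM array at 36 h and 861 without the second at 60 h. The balance of higher and lower depended on the scaling: with arrays scaled to a common median it was 421 to 1225 over both treatments and 148 to 919 under vehicle, and with values as deposited it was 129 to 273 over both treatments and 55 to 150 under 4OH-TM.

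Changes called under vehicle and under 4OH-TM with the same sign numbered 355 (4.66% of genes tested), with 131 higher and 224 lower at 60 h. The 2 comparisons use different arrays, but both came from the same fit. They share the estimate of each gene's spread and the joint normalization, so the 2 calls are not independent tests. A gene with a small estimated spread is more readily called in both. The shared rises were 44.6% of the genes called higher under vehicle and 17.9% of those called higher under 4OH-TM, and the shared falls were 45.5% and 33.8% of the falls. With arrays scaled to a common median the shared set was 63 higher and 290 lower. A further 15 genes were called in both treatments with opposite signs. Among the genes called over both treatments, 821 of 856 rises (95.9%) and 860 of 882 falls (97.5%) had the same sign in each treatment. Of the shared genes, 77 rises and 107 falls also had all 4 arrays at 60 h beyond all 4 at 36 h, where 9.65% of all genes tested separated the arrays in this way, 5.11% upward and 4.54% downward. The same-sign and separation counts are favoured by the selection, because the genes were chosen for their change on these same arrays. They are therefore descriptive. The count of shared genes was 189 without the second vehicle array at 36 h and 213 without the second vehicle array at 60 h.

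**Figure D1:**
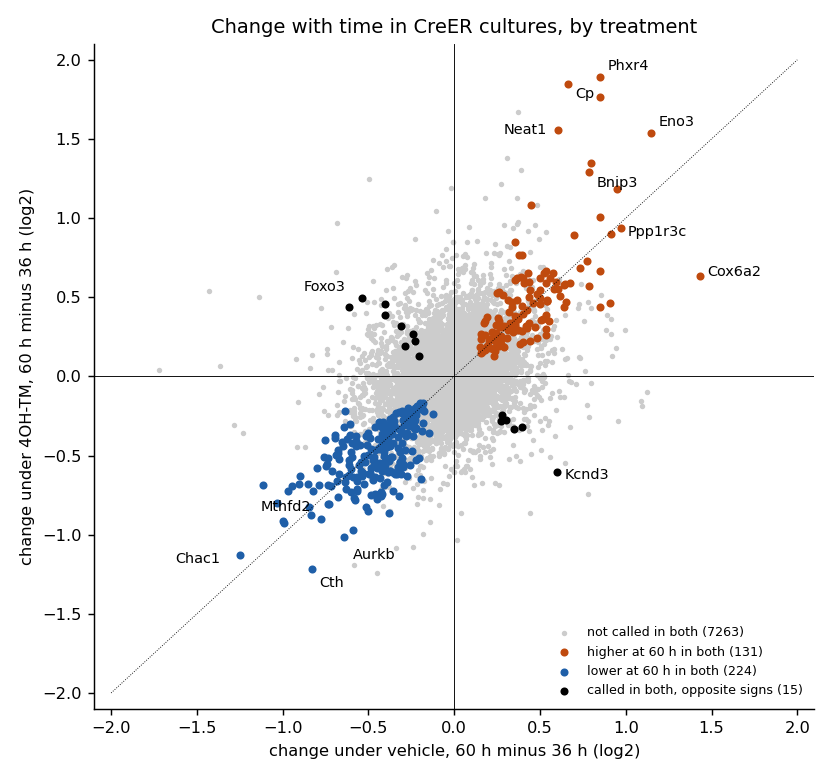
Change from 36 h to 60 h under vehicle (x axis, log2) and under 4OH-TM (y axis, log2) for each of the 7618 genes tested in CreER cultures, with the line of equal change dotted. The 131 shared rises and 224 shared falls lie in the upper right and lower left, and the 15 genes called with opposite signs lie off that diagonal.

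Several stretches of gene promoters are shown first, because genes of the integrated stress response fell over both treatments. ATF4 with a C/EBP partner binds elements that hold the letters TGATGNAA. These letters, on either strand, stood in the 250 bases before the start of 7 of the 15 fallen genes of this list that have a promoter in the RefSeq table (46.7%; GRCm38.p6), against 2.25% of 6268 tested genes and 3.91% of all 27025 genes in the table. With starts limited to those within 500 bases of the outer end of the gene, the count was 5 of 11 (45.5%) against 1.82% of 5388 tested genes. The 5 stretches follow, 5′ to 3′ along the gene's strand, with the matching letters in capitals. They are chr2:119351024-119351081 (+) for Chac1, chr8:94386292-94386349 (+) for Herpud1, chr6:7693210-7693257 (-) for Asns, chr7:126625548-126625605 (-) for Nupr1 and chr6:55037946-55038000 (+) for Gars. Chac1 and Asns were also called under each treatment singly, and Herpud1, Nupr1 and Gars were not.
Chac1: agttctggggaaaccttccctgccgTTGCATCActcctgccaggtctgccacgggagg
Herpud1: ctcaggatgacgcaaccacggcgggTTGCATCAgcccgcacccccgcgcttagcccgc
Asns: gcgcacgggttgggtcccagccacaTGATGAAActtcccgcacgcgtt
Nupr1: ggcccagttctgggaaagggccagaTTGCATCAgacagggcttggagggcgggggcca
Gars: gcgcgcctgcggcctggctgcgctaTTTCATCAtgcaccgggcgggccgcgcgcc
Slc7a11 and Aars also held the letters, but at a start inside the gene, so their stretches are not shown. A match describes these letters and does not show that the factor was bound. Because the list gathers genes of the ATF4 program, the letters may be common among its members whether or not they fell. Members that did not fall were not counted apart, so the share does not bear on the fall.

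Integrated stress response and amino acid supply genes fell over both treatments in 18 of 26 tested members and rose in 1, Vldlr, a lipoprotein receptor. Their median change was -0.33, against 0.003 over all genes, and 11.6% of all genes fell and 11.2% rose. In the 2 treatments taken singly, 11 fell under vehicle and 18 under 4OH-TM, where 6.46% and 8.7% of all genes did. Under both 10 fell, where 2.94% of all genes did. The members that fell under both were Chac1, Mthfd2, Atf4, Eif4ebp1, Asns, Psat1, Cth, Aars, Slc7a5 and Slc1a4. The count of falls over both treatments was 15 to 19 under every alternative and with any CreER array left out, while the shared count was 3 with values as deposited. The rise of Vldlr was called without the first 4OH-TM array at 60 h and lost without any 1 of the other 7 CreER arrays.

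Chac1, an enzyme that breaks down glutathione, had signals of 395 and 394 under vehicle at 36 h and of 165 and 149 at 60 h. Under 4OH-TM it had 576 and 565 at 36 h and 227 and 279 at 60 h. All 4 arrays at 60 h were below all 4 at 36 h, and the level at 36 h was higher with 4OH-TM. Over both treatments Chac1 fell by 1.19 on the log2 scale (SE 0.079, limma adjusted p = 1.68e-07). Its fall under vehicle (1.25) and that under 4OH-TM (1.13) differed by 0.12 (SE 0.157, limma adjusted p = 0.737).

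Mthfd2, a mitochondrial enzyme of folate metabolism, gave 1590 and 1590 under vehicle at 36 h and 963 and 944 at 60 h. With 4OH-TM the signals were 1500 and 1580, then 914 and 841. The replicate arrays lay close together and the 2 times did not overlap. Mthfd2 fell by 0.77 over both treatments (SE 0.038, limma adjusted p = 1.92e-08). Atf4 itself, the transcription factor, went from 4570 and 4400 to 3010 and 3010 under vehicle and from 4470 and 4190 to 3350 and 3310 with 4OH-TM. It fell by 0.48 (SE 0.033, limma adjusted p = 2.05e-07). Cth, which makes cysteine from cystathionine, fell by 1.02 (SE 0.116, limma adjusted p = 1.99e-05), from 121 and 133 to 62.4 and 66.5 under vehicle and from 226 and 264 to 85.1 and 107 with 4OH-TM.

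For part of the list the fall differed between treatments. Asns, which makes asparagine, went from 3140 and 3400 to 2940 and 2770 under vehicle, and from 3960 and 3880 to 2490 and 2500 with 4OH-TM. Its fall was 0.19 under vehicle and 0.65 with 4OH-TM, and the difference passed (limma adjusted p = 0.00832). Trib3, a pseudokinase that restrains ATF4, stood at 157 and 125, then 124 and 109 under vehicle, and at 340 and 395, then 163 and 167 with 4OH-TM. The fall with 4OH-TM began from a higher level at 36 h and ended above the vehicle arrays. The difference of -0.84 for Trib3 had an SE of 0.2 (limma adjusted p = 0.0453). In all 4 members of this list passed for a larger fall with 4OH-TM, Asns, Trib3, Shmt2 and Phgdh, where 0.735% of all genes passed in that direction. The count was 0 to 4 across the alternatives, and 1 without either vehicle array at 60 h, without either vehicle array at 36 h, without either 4OH-TM array at 36 h or without the second 4OH-TM array at 60 h.

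Among the largest shared falls outside that list, Bcat1, the cytosolic branched-chain aminotransferase, had 913 and 933 under vehicle at 36 h and 510 and 510 at 60 h. With 4OH-TM it had 764 and 692, then 383 and 394. It fell by 0.86 (SE 0.065, limma adjusted p = 5.54e-07), with no overlap between times, and its second probe set fell by 0.89. Shmt1, the cytosolic serine hydroxymethyltransferase, fell by 0.78 (SE 0.053, limma adjusted p = 1.99e-07), from 705 and 721 to 480 and 456 under vehicle and from 531 and 541 to 254 and 277 with 4OH-TM. Slc25a13, a mitochondrial aspartate and glutamate carrier, fell by 0.82 (SE 0.123, limma adjusted p = 0.000249). Its signals lay between 41.6 and 52.2 on the 4 arrays at 60 h, near the filter, and between 78.8 and 120 at 36 h.

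Mitosis genes held more shared falls than any other of the 29 gene lists. Of 39 tested members 37 fell over both treatments and none rose, where 11.6% and 11.2% of all genes did, with a median change of -0.57. Called singly, 34 fell under vehicle and 33 with 4OH-TM, where 6.46% and 8.7% of all genes did. Under both 32 fell, where 2.94% of all genes did so. The remaining members Plk1 and Kif23 changed by -0.26 and -0.21 without passing. No member passed the test of a difference between treatments, in the main setting or any alternative, and at an unadjusted limma p under 0.05 there were 3 with a smaller fall under 4OH-TM and 5 with a larger one. The count of falls over both treatments was 35 to 39 in every alternative, values as deposited included, and the shared count was 15 with values as deposited and 27 to 33 otherwise.

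Aurka, a kinase of the spindle poles, had 1510 and 1440 under vehicle at 36 h and 919 and 916 at 60 h. With 4OH-TM it had 1140 and 1200, then 724 and 644. Aurka fell by 0.72 over both treatments (SE 0.052, limma adjusted p = 3.27e-07), without overlap between times. Aurkb, the kinase of the chromosomal passenger complex, fell by 0.83 (SE 0.073, limma adjusted p = 1.64e-06), from 653 and 720 to 435 and 430 under vehicle and from 498 and 613 to 287 and 245 with 4OH-TM. Top2a, which untangles DNA before division, went from 2800 and 2710 to 1680 and 1750 under vehicle, and from 1620 and 1610 to 1180 and 1160 with 4OH-TM. The 4OH-TM arrays at 36 h were thus already below the vehicle arrays at 60 h, so the times overlap for Top2a when the treatments are pooled. Its fall of 0.57 (SE 0.029, limma adjusted p = 1.92e-08) was called in each treatment.

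Nusap1, a microtubule-binding spindle protein, had 1350 and 1310 under vehicle at 36 h and 658 and 752 at 60 h, and 847 and 816, then 522 and 506, with 4OH-TM. It fell by 0.79 (SE 0.051, limma adjusted p = 1.4e-07), but its second, dimmer probe set changed by -0.09. Ncapg, a condensin subunit, fell by 0.85 (SE 0.071, limma adjusted p = 1.36e-06), and its second probe set changed by -0.28. Ska1, which ties kinetochores to microtubules, fell by 0.92 (SE 0.175, limma adjusted p = 0.00164), with a second probe set at -0.26. Depdc1a, a further gene of dividing cells, had 112 and 119, then 41.7 and 47.8 under vehicle, and 56.5 and 71.9, then 30 and 37.5 with 4OH-TM. It fell by 0.90 (SE 0.116, limma adjusted p = 6.22e-05), and at 60 h all 4 arrays were under the signal of 51.4 at which the filter lies.

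DNA replication genes fell as widely over both treatments, in 34 of 39 tested members with none higher, but unevenly between treatments. Their median change was -0.22 under vehicle and -0.54 with 4OH-TM. Of these members 16 fell under vehicle, 33 with 4OH-TM and 16 under both, where 6.46%, 8.7% and 2.94% of all genes did. The vehicle and shared counts were each 9 without the second vehicle array at 36 h, without the second at 60 h, or with the actin 5′ to 3′ ratio of each array as a covariate, and 1 with values as deposited. Scaling to a common median gave 25 falls under vehicle and 24 shared. For 9 members the fall was larger with 4OH-TM by the test of the difference, where 0.735% of all genes passed in that direction, and for none was it smaller. At an unadjusted limma p under 0.05, 22 had a larger fall with 4OH-TM. The count of 9 was between 0 and 11 across the alternatives. Without 1 array it was 2 to 4 for each vehicle array, 3 for the second 4OH-TM array at 36 h and 2 for the second at 60 h.

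Mcm5, a subunit of the replicative helicase, had 1430 and 1590 under vehicle at 36 h and 1310 and 1280 at 60 h. With 4OH-TM it had 1140 and 1220, then 694 and 646. The vehicle change of -0.22 was not called (limma adjusted p = 0.0546), the 4OH-TM fall of 0.81 was (limma adjusted p = 3.4e-06), and the difference of -0.59 passed (SE 0.096, limma adjusted p = 0.00845). Cdt1, which loads that helicase, stood at 1690 and 1770, then 1730 and 1680 under vehicle, and at 1460 and 1440, then 961 and 965 with 4OH-TM. Its vehicle arrays overlapped and its 4OH-TM arrays did not (difference, limma adjusted p = 0.00371). Mcm10, Rad51c, a recombination protein, and Cdca7l, a MYC partner, are further genes called with 4OH-TM alone whose difference passed, of -0.46, -0.58 and -0.64. Rrm1, the large ribonucleotide reductase subunit, in contrast fell under both treatments, from 2790 and 2810 to 2100 and 2090 and from 2070 and 2160 to 1380 and 1400. E2F sites in the form TTTGGCGC or TTTCCCGC, on either strand, stood before 5 of 28 fallen replication genes with a promoter in the table (17.9%) and before 1 of 29 fallen mitosis genes (3.45%), against 3.4% of tested genes. List members that did not fall were not counted apart.

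**Figure D2:**
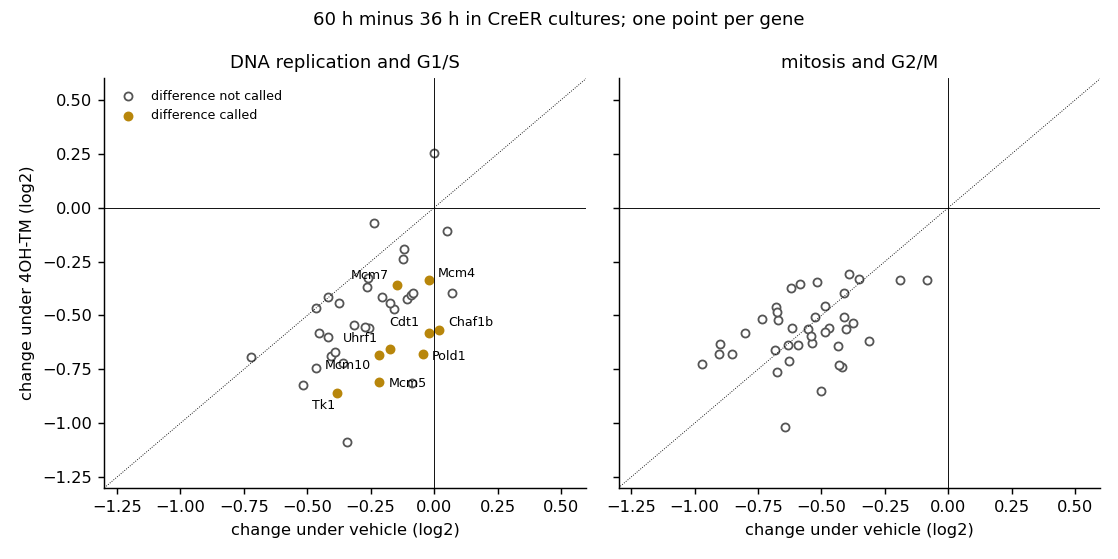
Change from 36 h to 60 h under vehicle (x axis, log2) and with 4OH-TM (y axis, log2) for the 39 DNA replication genes (left) and the 39 mitosis genes (right), with the line of equal change dotted. The 9 replication genes whose change differed between treatments are filled and named, most replication genes lie below the line, and mitosis genes lie on both sides of it.

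Of the CDK inhibitors and p53 targets, genes that restrain the cell cycle, 7 of 18 tested members rose and 3 fell over both treatments, where 11.2% and 11.6% of all genes did. With arrays scaled to a common median 4 rose and 5 fell, and with values as deposited 1 and 1. Taken singly, 8 rose and 2 fell with 4OH-TM, where 9.58% and 8.7% of all genes did. Under vehicle 0 rose and 2 fell, where 3.86% and 6.46% of all genes did. Of the members, 3 were higher under vehicle at an unadjusted limma p under 0.05. The 2 falls were the same genes in each treatment, Cdkn2c and Cdkn2d, inhibitors of CDK4 and CDK6, and the shared count was 0 without the second vehicle array at 36 h or the second at 60 h. Cdkn2c had 1730 and 1670, then 1410 and 1380 under vehicle, and 1450 and 1430, then 1180 and 1030 with 4OH-TM. Trp53inp1, a p53 target, differed between treatments (limma adjusted p = 0.0107): it stayed between 521 and 567 on the 4 vehicle arrays, and went from 944 and 1030 to 1370 and 1670 with 4OH-TM. Mdm2, which marks p53 for destruction, and Ccng1 were the other 2 members whose difference passed. The count of 3 was 1 without the first vehicle array at 36 h or at 60 h, or without the second 4OH-TM array at 36 h or at 60 h. All 3 of these calls were lost with values as deposited, with CreER arrays only and with the actin ratio as a covariate. Of 19 alternatives, Trp53inp1 kept its call in 16, Mdm2 in 10 and Ccng1 in 5. Of 22 genes of MYC and ribosome biogenesis 8 fell and 1 rose over both treatments, where 11.6% and 11.2% of all genes did. There were 2 falls under vehicle, 9 with 4OH-TM and 2 shared, where 6.46%, 8.7% and 2.94% of all genes fell. The vehicle count is near that share. For 3 of the 22, Nolc1, Fbl and Ppan, the fall was larger with 4OH-TM, where 0.735% of all genes passed. That count was 0 to 4 over the alternatives, and with values as deposited 1 fell and 0 rose over both treatments. None of 14 cytosolic ribosomal protein genes passed, at an adjusted or an unadjusted limma p under 0.05 over both treatments.

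Hypoxia and glycolysis genes rose over both treatments in 17 of 21 tested members and fell in none, where 11.2% and 11.6% of all genes did, with a median change of 0.20. Under vehicle 11 rose and with 4OH-TM 12, where 3.86% and 9.58% of all genes did. Under both 8 rose, where 1.72% of all genes did so. No member of the list passed the test of a difference between treatments. At an unadjusted limma p under 0.05 the change was lower with 4OH-TM for 2 members, Hk2 and Slc2a1. Hk2 changed by 0.18 under vehicle and -0.22 with 4OH-TM, and Slc2a1 by 0.21 and -0.14. Scaling affected the count, which was 10 with arrays scaled to a common median and 8 with values as deposited, with none lower in either. The vehicle count of 11 was 1 without the second vehicle array at 36 h and 3 without either at 60 h, and the 4OH-TM count of 12 was 3 and 7 without the first and second 4OH-TM arrays at 36 h and 4 without the second at 60 h. The shared count was 1 without the second vehicle array at 36 h, 2 without the second vehicle array at 60 h or the first 4OH-TM array at 36 h, 3 without the first vehicle array at 60 h or the second 4OH-TM array at 60 h, 5 without the second 4OH-TM array at 36 h, and 8 and 9 without the others. It was 1 with values as deposited and 2 with the actin ratio as a covariate.

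Bnip3, a mitochondrial protein that promotes mitophagy, gave 1240 and 717 under vehicle at 36 h and 1570 and 1720 at 60 h. With 4OH-TM it gave 576 and 600, then 1300 and 1640. The first vehicle array at 36 h was far above its replicate, yet all 4 arrays at 60 h were above all 4 at 36 h. Bnip3 rose by 1.04 (SE 0.125, limma adjusted p = 3.53e-05), and the changes of 0.79 under vehicle and 1.29 with 4OH-TM did not differ past the threshold (limma adjusted p = 0.296). Egln3, a prolyl hydroxylase that senses oxygen, showed the same array apart, with 325 and 215, then 440 and 441 under vehicle, and 143 and 163, then 267 and 330 with 4OH-TM. Egln3 rose by 0.80 (SE 0.127, limma adjusted p = 0.000411), and its times overlap when treatments are pooled. Vegfa, a growth factor for vessels, rose by 0.51 (SE 0.084, limma adjusted p = 0.000553), from 596 and 536 to 751 and 920 under vehicle and from 497 and 539 to 682 and 772 with 4OH-TM. Adm, a vasodilator peptide gene, and Ndrg1 also rose under both treatments, by 0.58 and 0.57 in the mean of both. The glycolytic enzymes moved little: Tpi1 rose by 0.17, Aldoa by 0.11 and Ldha by 0.09, while Pgk1 and Hk2 changed by 0.09 and -0.02 without passing.

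The core letters of hypoxia response elements, ACGTG, on either strand, stood in the 250 bases before the start of 9 of 15 risen genes with a promoter in the table (60.0%), against 26.7% of tested genes. With starts at the outer end of the gene it was 6 of 13 (46.2%) against 24.9%. The 3 largest rises among these 6 are shown, with the matches in capitals: chr7:138909584-138909638 (-) for Bnip3, where matches on the 2 strands overlap, chr12:54204074-54204124 (-) for Egln3 and chr8:124949293-124949347 (-) for Egln1, a second oxygen sensor.
Bnip3: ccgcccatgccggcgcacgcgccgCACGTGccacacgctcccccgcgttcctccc
Egln3: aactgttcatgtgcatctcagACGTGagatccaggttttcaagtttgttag
Egln1: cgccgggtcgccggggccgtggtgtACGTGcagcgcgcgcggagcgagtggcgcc
These 5 letters are short and common, and a match does not show that the factor was bound. The list gathers genes of the hypoxia program, and members that did not rise were not counted apart, so the share does not bear on the rise.

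Of the 12 shared rises of largest size, Eno3, the muscle form of the glycolytic enzyme enolase, had 56.8 and 69.6 under vehicle at 36 h and 170 and 148 at 60 h. With 4OH-TM it had 102 and 97.5, then 346 and 297. Eno3 was higher with 4OH-TM at both times, and rose by 1.34 over both treatments (SE 0.124, limma adjusted p = 2.61e-06). Ppp1r3c, which directs a phosphatase to glycogen, had 837 and 628, then 1460 and 1420 under vehicle, and 649 and 669, then 1180 and 1370 with 4OH-TM. Ppp1r3c rose by 0.95 (SE 0.074, limma adjusted p = 6.94e-07), with changes of 0.97 and 0.94 in the 2 treatments, and its second probe set rose by 0.81. Cox6a2, a muscle and heart subunit of cytochrome oxidase, had 85.9 and 81.5, then 260 and 246 under vehicle, and 146 and 148, then 235 and 238 with 4OH-TM. It rose by 1.03 (SE 0.108, limma adjusted p = 8.84e-06), and its larger rise under vehicle did not pass as a difference (limma adjusted p = 0.0671).

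Neat1, a nuclear noncoding RNA that builds paraspeckles, had 586 and 562 under vehicle at 36 h and 826 and 939 at 60 h, and with 4OH-TM 573 and 526, then 1780 and 1510. Neat1 rose under both treatments, by 0.60 and 1.56, and the difference passed (0.95, SE 0.16, limma adjusted p = 0.0104). Igfbp5, which binds insulin-like growth factors, had 278 and 190, then 419 and 407 under vehicle, and 353 and 362, then 802 and 1090 with 4OH-TM. It rose by 1.07 (SE 0.099, limma adjusted p = 2.52e-06), and its second probe set by 1.10. Cp, a copper-carrying ferroxidase, had 198 and 267, then 314 and 443 under vehicle, and 211 and 220, then 755 and 886 with 4OH-TM on its brightest probe set. That probe set rose by 1.26 (SE 0.106, limma adjusted p = 1.5e-06), while the 6 other Cp probe sets changed by -0.09 to 0.21 under vehicle and by 0.34 to 1.02 with 4OH-TM, so the shared call for Cp rests on 1 probe set.

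The remaining large rises were Phxr4 (1.37), Lalba (1.31), a milk protein gene, Cdc42ep3 (0.71), a Cdc42 effector, Serpinf1 (0.69), a secreted serpin, and Cdh22 (0.64), a cadherin. Serpinf1 had 61.4 and 48, then 117 and 115 under vehicle, and 49.1 and 52.1, then 83.2 and 69.1 with 4OH-TM, so that its 36 h level lay at the filter. Cdc42ep3 has a second probe set, which rose by 0.40. The other large falls were Tnfaip6 (-0.84), a hyaluronan-binding protein, and Insm1 (-0.77), a transcription factor of neural and endocrine progenitors. Insm1 had 193 and 244, then 124 and 125 under vehicle, and 181 and 240, then 98.2 and 128 with 4OH-TM, without overlap between times. The 24 named shared genes kept their call over both treatments in each of the 19 alternatives that tested them. A gene that did not pass the filter of an alternative was not tested there. This concerns the mean of both treatments, not the shared call.

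**Figure D3:**
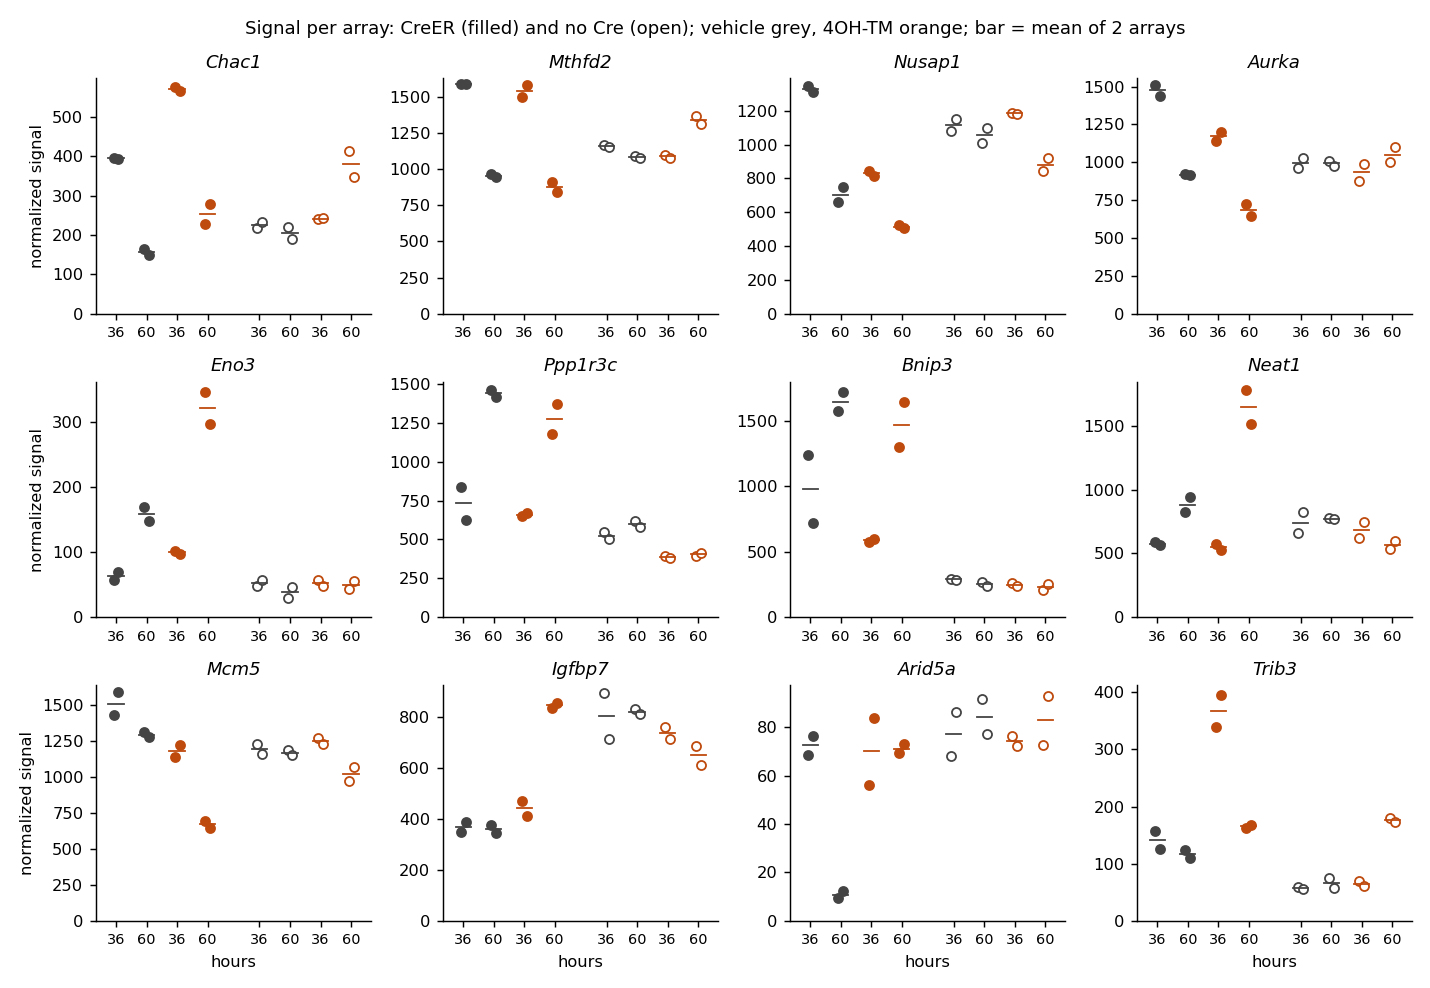
Quantile-normalized signal of 12 genes on each of the 16 arrays, by hour (x axis), with CreER filled, no Cre open, vehicle grey, 4OH-TM orange and a bar at the mean of the 2 arrays of a group. Chac1, Mthfd2, Nusap1 and Aurka fall and Eno3, Ppp1r3c, Bnip3 and Neat1 rise under both CreER treatments, while Mcm5, Igfbp7, Arid5a and Trib3 differ between them.

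ER chaperone genes, which fold proteins in the endoplasmic reticulum, rose in 12 of 18 tested members over both treatments and fell in 1, Sel1l, whose fall was called with 1 array left out only where that was the second 4OH-TM array at 60 h. Their median change was 0.21, and 11.2% of all genes rose and 11.6% fell. Taken singly, 8 rose and 2 fell under vehicle, where 3.86% and 6.46% of all genes did. With 4OH-TM 7 rose, where 9.58% of all genes did. The 5 that rose under both treatments, where 1.72% of all genes did, were Pdia6, Hsp90b1, Pdia3, Calr and Sdf2l1. Pdia6, a disulfide isomerase, had 2220 and 1960, then 2950 and 2880 under vehicle, and 2060 and 2060, then 2450 and 2430 with 4OH-TM. It rose by 0.36 (SE 0.036, limma adjusted p = 6.04e-06), and the 2 times did not overlap. Pdia4, a related isomerase, rose under vehicle from 729 and 695 to 1360 and 1360, and gave 731 and 837, then 1010 and 729 with 4OH-TM (difference -0.79, limma adjusted p = 0.0377). Hspa5, the main chaperone of that compartment, did the reverse, with 4790 and 4090, then 4400 and 4610 under vehicle, and 3060 and 3130, then 4170 and 4180 with 4OH-TM (difference, limma adjusted p = 0.037). With 1 CreER array left out, the call of Pdia4 was kept only without the first 4OH-TM array at 36 h or at 60 h, and that of Hspa5 only without the second vehicle array at 36 h. The count of 12 was 6 with arrays scaled to a common median and 3 with values as deposited. The vehicle count of 8 was 5 without the second vehicle array at 36 h, and the 4OH-TM count of 7 was 4 without the first 4OH-TM array at 36 h. The shared count of 5 was 0 with values as deposited and 3 without the second vehicle array at 36 h or at 60 h, or without the first 4OH-TM array at 36 h or at 60 h.

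Astrocyte markers rose in 8 of 14 tested members over both treatments and fell in none, where 11.2% and 11.6% of all genes did. None was called under both treatments. Taken singly, 2 rose under vehicle, where 3.86% of all genes did. With 4OH-TM 5 rose and 1 fell, where 9.58% and 8.7% of all genes did. Without the first vehicle array at 36 h 2 rose under both and 4 under vehicle, and the vehicle count was 1 without any other vehicle array. The 4OH-TM count of 5 was 2 without either 4OH-TM array at 36 h and 3 without either at 60 h. Of 23 astrocyte markers on the array 14 passed the filter. The summed marker signal was 23140 to 26250 at 36 h and 27320 to 28010 at 60 h, without overlap. Sparcl1, the brightest marker, was itself not called over both treatments (0.09, limma adjusted p = 0.0634). Nor were Fgfr3 (0.18), Aldh1l1 (0.16), Slc4a4 (0.05), Gja1 (-0.04) and Id3 (-0.05), and Id3 was the fall with 4OH-TM. S100b, a calcium-binding protein of astrocytes, had 197 and 206, then 231 and 215 under vehicle, and 345 and 364, then 671 and 641 with 4OH-TM. Cst3, a secreted protease inhibitor, had 2330 and 2330, then 2470 and 2390, and 2650 and 2620, then 3500 and 3770. Both differed between treatments (limma adjusted p = 0.0175 and 0.00839), with the larger rise after 4OH-TM. Both calls were lost with CreER arrays only, with the actin covariate and with values as deposited, and that of S100b also without the second vehicle array at 36 h or 60 h or the second 4OH-TM array at 60 h. Mt1 and Mt2, metallothioneins, which metals also induce, made up 2 of the 8 rises. The count of 8 was 5 with arrays scaled to a common median and 2 with values as deposited. Neural stem cell markers rose in 2 and fell in 4 of 19, where 11.2% and 11.6% of all genes did. Sox2, a stem cell transcription factor, fell by 0.23. The rises were Cspg4 (0.615), also on the endothelial and mural list, and Nes (0.19), an intermediate filament. Nes changed by -0.09 under vehicle and by 0.46 with 4OH-TM (difference 0.54, limma adjusted p = 0.0129). The split of the stem cell markers was 1 higher and 5 lower with arrays scaled to a common median, where the call of Nes was lost, and 1 higher and 0 lower with values as deposited. Neuron markers rose in 2 and fell in 2 of 10, counts too small to set against those shares, and oligodendrocyte lineage markers rose in 2 and fell in 1 of 4.

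FoxO target and quiescence genes rose in 6 of 13 tested members over both treatments and fell in none, where 11.2% and 11.6% of all genes did. Klf2, Sesn3 and Gabarapl1 were higher in each treatment, where 1.72% of all genes were. Taken singly, 4 rose and 1 fell under vehicle, where 3.86% and 6.46% of all genes did. With 4OH-TM 7 rose and 1 fell, where 9.58% and 8.7% of all genes did. The shared count of 3 was 1 without the second vehicle array at 36 h or the first at 60 h. Klf2, a zinc finger factor linked to quiescence, had 110 and 103, then 246 and 186 under vehicle, and 370 and 356, then 783 and 609 with 4OH-TM. It rose by 0.91 (SE 0.098, limma adjusted p = 1.21e-05), by nearly the same amount in each treatment (0.92 and 0.90), from a level at 36 h that was higher with 4OH-TM. Foxo3 itself, a forkhead factor that keeps neural stem cells at rest, moved in opposite directions. It went from 604 and 569 to 410 and 387 under vehicle and from 858 and 806 to 1170 and 1180 with 4OH-TM. The changes of -0.54 and 0.49 differed with a limma adjusted p of 0.000135. That call was kept with any CreER array left out and lost with values as deposited.

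**Figure D4:**
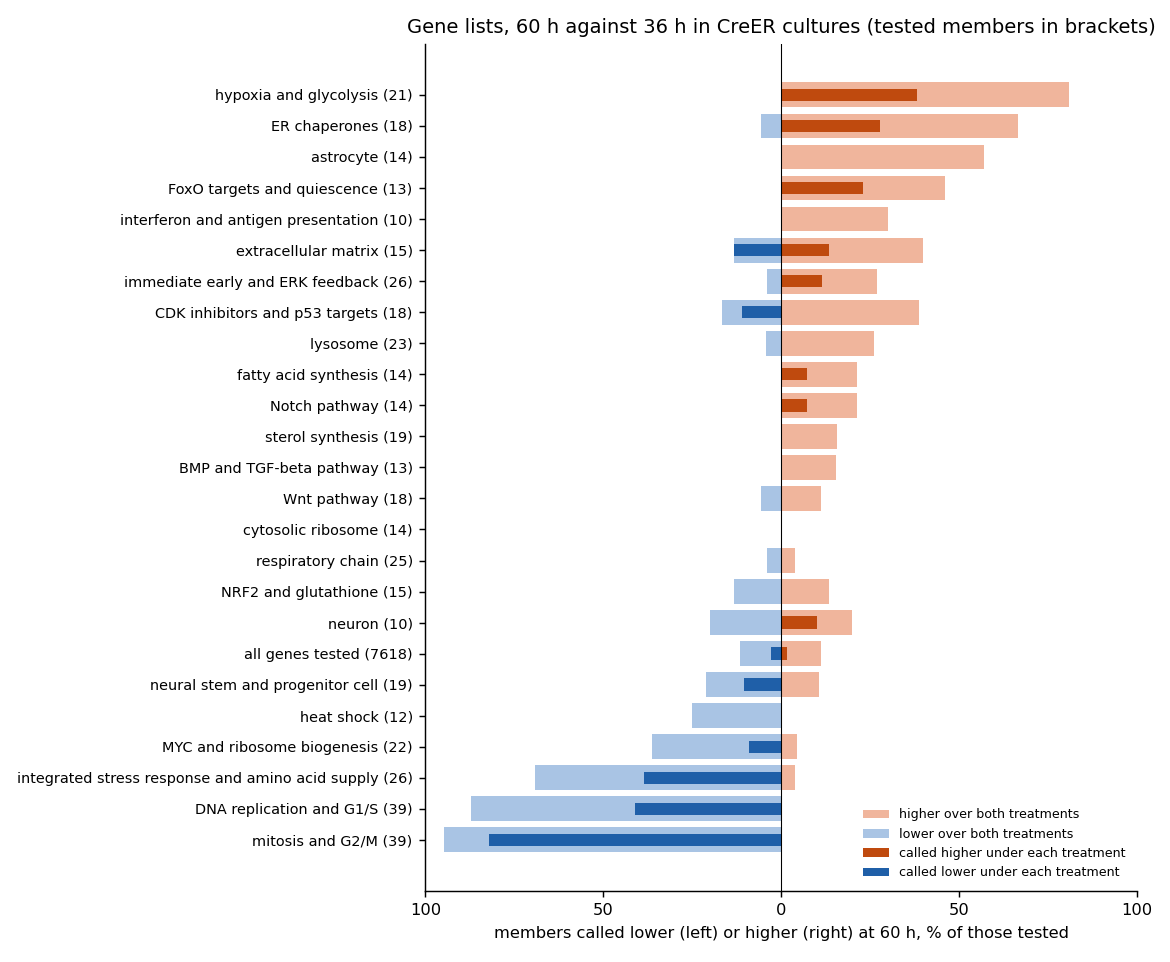
Percentage of tested members called lower (left) or higher (right) at 60 h over both treatments (pale bars), and called under each treatment in the same direction (dark bars), for the gene lists with at least 10 tested members and for all genes tested. Mitosis, replication and integrated stress response genes lie at the bottom with falls, hypoxia and ER chaperone genes at the top with rises, and all genes tested show 11.2% higher and 11.6% lower.

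The change with time differed between treatments for 167 genes (2.19%), with 111 higher (1.46%) and 56 lower (0.735%) after 4OH-TM relative to vehicle. This set depended on the processing more than the shared set did. It was 145 higher and 15 lower with arrays scaled to a common median, 7 and 8 with values as deposited, 14 genes with the CreER arrays alone, and 27 without the second 4OH-TM array at 60 h. It was also 53 and 85 without the first and second vehicle arrays at 36 h, 102 and 66 without those at 60 h, and 55 without the second 4OH-TM array at 36 h. Of the 27 genes named for this difference none kept its call in all alternatives, and leaving out 1 CreER array lost 5 to 23 of the calls. Of the genes called under vehicle and not with 4OH-TM, 9 rises and 29 falls passed this test, and of those called with 4OH-TM alone 65 rises and 36 falls did. Among the 355 shared genes 4 rises and 5 falls also passed it.

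Igfbp7, a secreted binding protein, showed a difference that passed whichever CreER array was left out. It had 348 and 388, then 374 and 342 under vehicle, and 470 and 410, then 834 and 854 with 4OH-TM. Its changes were -0.04 under vehicle and 0.92 with 4OH-TM (difference 0.96, SE 0.144, limma adjusted p = 0.00607), and the vehicle arrays overlapped in time. The call was lost with values as deposited and with the actin ratio as a covariate. Cryab, a small heat shock protein, had 49 and 85.1, then 61.9 and 26.2 under vehicle, and 117 and 169, then 340 and 372 with 4OH-TM (difference 1.74, SE 0.346, limma adjusted p = 0.023). Its call was lost without the second vehicle array at either time, the first 4OH-TM array at 36 h or the second at 60 h. Airn, a noncoding RNA antisense to Igf2r, had 115 and 92.3, then 134 and 128, and with 4OH-TM 80.7 and 74.7, then 216 and 239 (difference 1.07, SE 0.217, limma adjusted p = 0.0248). Among falls under vehicle alone, Arid5a, an RNA-binding protein, went from 68.5 and 76.5 to 9.46 and 12.1, below the filter, against 56.1 and 83.9, then 69.5 and 72.9 with 4OH-TM. Spry4, which restrains ERK signalling, rose under vehicle from 550 and 428 to 820 and 722, and had 1030 and 834, then 789 and 505 with 4OH-TM (difference -1.19, SE 0.269, limma adjusted p = 0.0369).

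Over both treatments 2065 genes (27.1%) were called in the cultures without Cre, with 939 higher and 1126 lower. By treatment 127 genes (1.67%) were called under vehicle, 101 higher (1.33%) and 26 lower (0.341%), and 2187 (28.7%) with 4OH-TM, 1062 higher and 1125 lower, a split that was looked at after the first results were seen. The difference between these treatments without Cre was not tested. Scaling to a common median changed the balance to 501 higher and 3015 lower over both treatments and shifted the median change of all genes there from -0.04 to -0.14. By treatment that scaling gave 95 higher and 381 lower under vehicle and 571 and 1997 with 4OH-TM. Values as deposited gave 192 higher and 120 lower over both treatments, and 259 and 45 with 4OH-TM. The actin 5′ to 3′ ratio, a measure of RNA integrity and labelling, rose with time in these arrays, from 0.548 to 0.666 at 36 h to 0.773 to 0.891 at 60 h, while on the CreER arrays it was 0.716 to 0.825 and 0.72 to 0.882. With that ratio as a covariate 4 genes were called over both treatments without Cre, 3 under vehicle and 20 with 4OH-TM. Without Cre the ratio did not overlap between the 2 times, so that fit can hardly separate time from the ratio. The same limit holds for the genotype differences given with this covariate. The part of the ratio in the result was not tested otherwise. Over both treatments the count was 1362 and 1246 without the first vehicle arrays at 36 h and 60 h, 1192 without the first 4OH-TM array at 36 h and 1308 without the second at 60 h. The vehicle count was 2 without the first vehicle array at 36 h, 9 and 14 without the arrays at 60 h, and the 4OH-TM count 1057 without the first 4OH-TM array at 36 h, 1336 and 1217 without those at 60 h.

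The difference between the genotypes in the change with time passed for 1308 genes (17.2%), with 657 higher (8.62%) and 651 lower (8.55%) with CreER. With arrays scaled to a common median it was 793 and 386, with values as deposited 66 and 97, and with the actin ratio as a covariate 151 genes. Under vehicle the difference passed for 179 genes (2.35%), 63 higher and 116 lower with CreER, and under 4OH-TM for 1537 (20.2%), 783 and 754. Values as deposited gave 12 higher and 4 lower under vehicle and 25 and 167 under 4OH-TM, scaling to a common median gave 1041 and 419 under 4OH-TM, and the actin ratio as a covariate gave 220 and 92 genes. Of the arrays lacking Cre, the vehicle count was 54, 61 and 79 without the first at 36 h, the first at 60 h and the second at 60 h, and the 4OH-TM count was 917 without the first at 36 h. Of the CreER arrays, the vehicle count was 107 and 75 without the first and second at 36 h and 116 and 91 without those at 60 h. Of the shared CreER changes, 87 rises (66.4%) and 147 falls (65.6%) passed this difference in the same direction. Without Cre, 37 of the 131 rises and 93 of the 224 falls were called with the same sign, and 11 and 10 with the opposite sign. The median change of the shared rises was 0.40 with CreER and 0.07 without Cre, and of the shared falls -0.47 and -0.15; the CreER values are those that chose the genes.

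Mitosis genes fell without Cre in 0 of 39 members under vehicle and in 22 with 4OH-TM, where 0.341% and 14.8% of all genes did, so that the vehicle count is near the share of all genes. The count of 22 was 13 or 14 without any 1 of the 4 arrays with 4OH-TM lacking Cre, 31 with a common median, 1 with values as deposited and 1 with the actin covariate. The fall was larger with CreER for 20 members under vehicle and for 14 under 4OH-TM, where 1.52% and 9.9% of all genes were lower. With the actin ratio as a covariate these counts were 24 and 2. The count of 20 was 12 without the second CreER vehicle array at 36 h or with a common median, 12 and 11 without the first vehicle arrays lacking Cre at 36 h and 60 h, 13 without the second at 60 h, and 0 with values as deposited. The count of 14 was 7 with a common median and 1 with values as deposited. Nusap1 without Cre had 1080 and 1150, then 1010 and 1100 under vehicle, and 1190 and 1180, then 842 and 920 with 4OH-TM. At an unadjusted limma p under 0.05 over both treatments, 27 mitosis genes changed without Cre.

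Integrated stress response genes without Cre rose after 4OH-TM in 18 of 26 members and fell in none, where 13.9% and 14.8% of all genes did. The count was 14 to 20 with any 1 array lacking Cre left out, 8 with values as deposited and 0 with the actin ratio as a covariate. Under vehicle none rose and 1 fell, where 1.33% and 0.341% of all genes did. The genotype difference was lower with CreER for 22 members under 4OH-TM and for 8 under vehicle, where 9.9% and 1.52% of all genes were. With the actin ratio as a covariate these counts were 12 and 10. The count of 8 was 5 without the second CreER vehicle array at 60 h, and 5 without the second vehicle array lacking Cre at either time or the second 4OH-TM array lacking Cre at 60 h. Chac1 without Cre had 218 and 233, then 221 and 189 under vehicle, and 240 and 243, then 414 and 348 with 4OH-TM. Trib3 had 59.5 and 55.3, then 74 and 56.8, and with 4OH-TM 68.9 and 61, then 180 and 172. In the arrays with 4OH-TM the 2 genotypes thus crossed over for Chac1, which fell with CreER to 227 and 279.

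Hypoxia and glycolysis genes were called higher without Cre in 3 of 21 over both treatments, near the 12.3% of all genes, and with arrays scaled to a common median 7 were lower and 0 higher. The difference from CreER passed for 10, each higher with CreER, where 8.62% of all genes were. None of the 10 passed with the actin ratio as a covariate, a fit that can hardly separate time without Cre from that ratio. Bnip3 was between 210 and 295 on all 8 arrays without Cre, below every CreER array. For ER chaperones the difference was higher with CreER for 10 and lower for 1, where 8.62% and 8.55% of all genes were. With the covariate 5 of 18 were higher. Eno3 stayed between 30.2 and 56.6 without Cre at both times, under or near the filter. Igfbp5 disagreed between its probe sets: the brighter rose more with CreER by 0.96 (SE 0.139, limma adjusted p = 0.000497), and the second rose by 1.01 without Cre, a difference of 0.08.

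**Figure D5:**
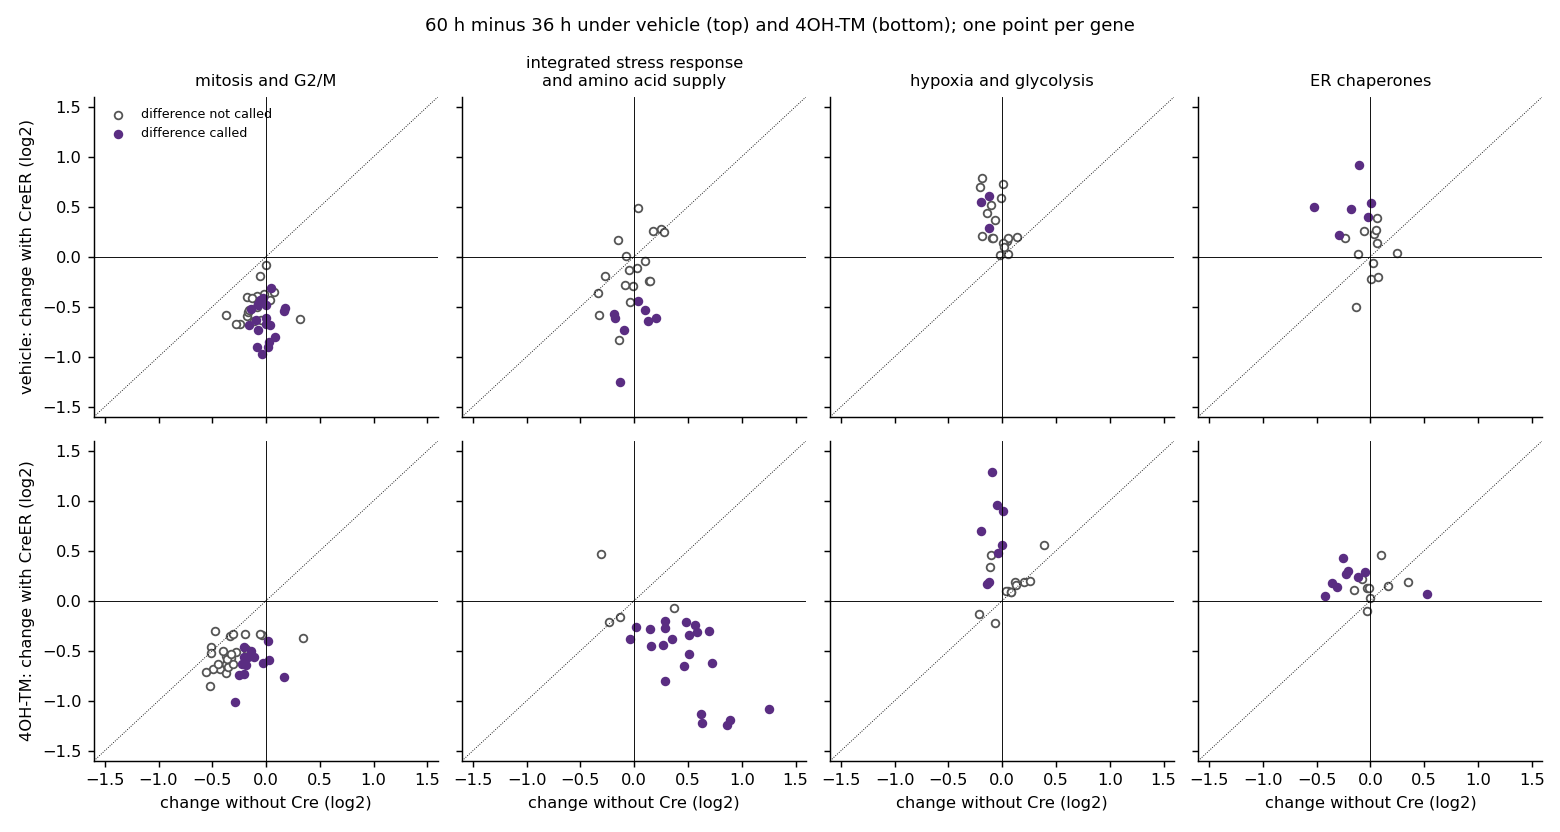
Change from 36 h to 60 h without Cre (x axis, log2) and with CreER (y axis, log2) for 4 gene lists, under vehicle (top) and 4OH-TM (bottom), with the line of equal change dotted and genes whose genotype difference was called filled. Integrated stress response genes spread along a change near 0 without Cre under vehicle and lie to the right with 4OH-TM, where 18 of 26 rose.

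Spry4, Kcnd3 and Smad5 had large genotype differences of the opposite kind, rising without Cre under both treatments. Spry4 went from 329 and 453 to 1330 and 1270 under vehicle and from 288 and 362 to 1310 and 1540 with 4OH-TM without Cre. Kcnd3, a potassium channel subunit, went from 42.9 and 46.2 to 190 and 170 and from 28 and 30 to 176 and 223, all 36 h values lying under the filter. The differences were -1.84 for Spry4 (SE 0.19, limma adjusted p = 3.6e-05) and -1.97 for Kcnd3 (SE 0.159, limma adjusted p = 5.18e-06). Smad5, which carries BMP signals, went from 143 and 249 to 572 and 540 and from 106 and 146 to 492 and 649, and its difference of -1.56 was lost with the actin ratio as a covariate.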

How the data were processed

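The deposited values are intensities on a linear scale, 1 per probe set and array, made by the authors with MAS5 per the submitters' processing notes. Its version and scaling target are not given in the sources used here. Of 22690 probe sets 64 controls were left out. The GEO platform annotation gave 20380 of the remaining 22626 probe sets 1 gene symbol, 691 several and 1555 none, for 12393 genes in all.

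The intensities of the 16 arrays were quantile-normalized together and taken as log2 after adding 16. Differences are on that scale, so a dim gene's fold change comes out too small. Probe sets with a mean log2 under the 40th percentile were left out, and the brightest probe set stood for each gene, leaving 7618 genes. limma 3.58.1 in R 4.3.3 fitted 8 group means with a mean-variance trend, on 8 residual degrees of freedom, and p-values were adjusted over all genes (Benjamini-Hochberg, threshold 0.05). Shared changes were called under each treatment with the same sign. With 2 arrays a group, the number of arrays limits the precision, and the median SE of a change over both treatments was 0.068.

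Genes were named as the largest shared changes, the largest differences between treatments and between genotypes, the leading genes called under 1 treatment alone, and list members. Genes given for illustration beyond these were chosen after their values were seen. The 29 gene lists and the comparison itself were chosen with earlier results of these data known. Promoter letters come from the RefSeq table of GRCm38.p6. Alternatives covered scaling, pseudocount, filter, probe sets, arrays in the fit, trend, replicate block, the actin ratio and leaving out each array. On simulated data of 7625 genes the fit over both treatments recovered 91% of changes of 1.5-fold and 100% of 2-fold, and the shared call recovered 76.1% and 96.9%. The simulated noise was independent between arrays, drawn from spreads estimated on these data, and held no array or scaling effects. These rates therefore do not cover the dependence on single arrays and on scaling.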

Additional observations from a re-analysis of the deposited data

Results flagged for a closer look

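The results below are differences between the changes with time of 2 groups that passed limma's test of the difference itself. They concern 167 genes between treatments and 1308 between genotypes, and no explanation was tested.

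Between treatments, the change with 4OH-TM minus that under vehicle was 1.97 log2 for Triap1, a p53-regulated survival factor, 1.76 for Arid5a, 1.74 for Cryab, 1.66 for Cox8b, a muscle cytochrome oxidase subunit, 1.64 for Fam126b and 1.19 for Cp. It was 1.15 for Srpk3, 1.07 for Airn, 0.96 for Igfbp7, 0.92 for Ppp1r1a, 0.86 for Vamp7, 0.76 for Plagl1 and 0.58 for Tmeff2. In the other direction it was -1.24 for Dlg4, a postsynaptic scaffold, -1.21 for Kcnd3, -1.19 for Spry4, -0.91 for Dok1, -0.84 for Trib3 and -0.81 for Haspin, a mitotic histone kinase. Smaller negative differences were -0.79 for Pdia4, -0.71 for Tff1, -0.71 for Chpf2, -0.64 for Cdca7l, -0.62 for Slc38a1, an amino acid carrier, -0.59 for Mcm5, -0.58 for Rad51c and -0.46 for Mcm10. Second probe sets gave -1.89 for Spry4, -0.65 for Trib3, -0.72 for Rad51c, 0.33 for Vamp7 and 0.79 for Cryab.

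Between genotypes, the change with CreER minus that without Cre was 1.55 for Eno3, 1.46 for A2m, a protease inhibitor of plasma, 1.29 for Lalba, 1.27 for Cp, 1.18 for Bnip3 and 1.18 for Neat1. It was -1.97 for Kcnd3, -1.89 for Nsd1, a histone methyltransferase, -1.84 for Spry4, -1.56 for Smad5, -1.44 for Chac1 and -1.38 for Arnt2, a partner of HIF factors. The 6 other Cp probe sets gave -0.02 to 0.71, and second probe sets gave -1.70 for Spry4, -0.68 for Smad5 and -1.43 for Arnt2.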

How the results depend on the processing

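Values used as deposited, without further scaling, gave 402 genes over both treatments, 103 under vehicle, 205 with 4OH-TM, 40 shared, 15 differing between treatments and 163 differing between genotypes. A fit that held the actin ratio of each array as a covariate gave 331 genes under vehicle, 190 shared, 25 between treatments and 151 between genotypes. The count between treatments was 72 with no filter on low signal, 105 with all probe sets tested and 14 with CreER arrays only. Leaving out 1 array at a time gave 1262 to 1549 genes over both treatments, 351 to 881 under vehicle, 699 to 1383 with 4OH-TM, 189 to 303 shared, 27 to 246 between treatments and 906 to 1277 between genotypes. Srebf2 changed sign, to -0.12 from 0.18, with CreER arrays only. The cause of these shifts was not tested. Of the 355 shared genes, 40 were shared also as deposited, 266 with a common median, 173 with the actin covariate and 182 to 272 with 1 array left out. Of 229 genes named for time over both treatments 118 kept their call in all alternatives that tested them. Of 27 for the treatment difference none did. Of 12 for the genotype difference 6 did, and the other 6 were lost with the actin covariate, which can hardly be separated from time without Cre.

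Replicate numbers did not pair the arrays: deviations of same-numbered arrays correlated at -0.094 to 0.112. A replicate block gave 1750, 806, 1395, 349, 144 and 1303 genes in the order above. The split of the no-Cre and genotype results by treatment, and leaving out no-Cre arrays, were added after seeing the data.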

Other observations

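Several smaller groups of genes moved with time in the CreER cultures. Immediate early and ERK feedback genes, which growth factor and stress signals switch on quickly, rose in 7 of 26 tested members over both treatments and fell in 1, Ier2, where 11.2% and 11.6% of all genes did. Jund, an AP-1 subunit, had 729 and 712 under vehicle at 36 h and 1010 and 896 at 60 h, and with 4OH-TM 1180 and 1070, then 1800 and 1680. It rose by 0.51 (SE 0.058, limma adjusted p = 2.1e-05), and its 4OH-TM arrays at 36 h were above the vehicle arrays at 60 h. Phlda1 and Ier3 also rose under both treatments, by 0.49 and 0.43 in the mean of both. Extracellular matrix genes rose in 6 of 15 and fell in 2. Fn1, fibronectin, rose by 0.40 and Timp1, a protease inhibitor, by 0.42, while Vcan, a proteoglycan of progenitor matrix, fell by 0.43. Vcan went from 1040 and 1020 to 636 and 679 under vehicle and from 886 and 809 to 714 and 740 with 4OH-TM, without overlap between times, and its fall was larger under vehicle (limma adjusted p = 0.028), a call kept in 10 of 19 alternatives. Thrsp, a regulator of lipid synthesis, had 1710 and 1690, then 2170 and 2220 under vehicle, and 2000 and 2040, then 2790 and 2860 with 4OH-TM. It rose by 0.42 (SE 0.032, limma adjusted p = 5.29e-07). Of 14 Notch pathway genes Hes6, Dll1 and Notch3 rose and none fell, and Hes6, which promotes neuronal differentiation, rose under both treatments by 0.36 and 0.32. Mapt, the microtubule protein tau, rose by 0.64 over both treatments, from 130 and 154 to 292 and 259 under vehicle and from 360 and 313 to 416 and 473 with 4OH-TM. Its rise was called under vehicle (0.89) and not with 4OH-TM (0.39, limma adjusted p = 0.112). Mapt is 1 of 10 tested neuron markers, of which 2 rose and 2 fell. The brightest of them, Stmn1, was among the falls (-0.16). Lysosome genes rose in 6 of 23 and fell in 1, heat shock genes fell in 3 of 12 and rose in none, and sterol synthesis genes rose in 3 of 19 and fell in none, near the share of all genes. The sterol count was 1 without the second 4OH-TM array at 36 h, and 1 gene fell without the first vehicle or the first 4OH-TM array at 36 h. Scaling moved these smaller counts. With arrays scaled to a common median, lysosome genes rose in 2 and fell in 1, heat shock genes fell in 6, sterol synthesis genes rose in 0 and fell in 1, immediate early genes rose in 6 and fell in 2, and matrix genes rose in 4 and fell in 2. With values as deposited, immediate early genes rose in 3 and fell in 0, matrix genes rose in 0 and fell in 1, lysosome genes rose in 1, and no member of the Notch, heat shock and sterol lists passed.

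The 15 genes called with opposite signs in the 2 treatments included, beside Foxo3, Rasa1, a GTPase-activating protein of Ras, at -0.62 under vehicle and 0.44 with 4OH-TM, and Tlr3, a sensor of double-stranded RNA, at -0.40 and 0.46. Atf5, a factor of the same family as Atf4, was at 0.40 and -0.32, and Wnt7b, a Wnt ligand, at 0.35 and -0.33.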
